A study of Mus musculus with 6 samples.

Results

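The Notch pathway of mouse lung was examined through 10 genes, namely the receptors Notch1, Notch2, Notch3 and Notch4, the ligands Dll1, Dll4, Jag1 and Jag2, and the target genes Hes1 and Hey1. Every probe set whose platform gene symbol was one of these was taken, which gave 19 of the 45101 probe sets on the array and 10 of the 18193 genes named by a single symbol there. A probe set is a group of short oligonucleotides against the 3′ part of a transcript that together give 1 signal. Lung RNA from Carm1 knockout mice (3 arrays) was compared with lung RNA from wild-type mice (3 arrays), 1 array per labelled sample. Carm1 encodes an arginine methyltransferase that methylates histones and transcriptional coactivators, and the knockout labels write it both as Carm1 and as CRAM1. The study's design text places both genotypes at embryonic day 18.5, whereas the wild-type sample labels call the tissue neonatal, so age and genotype cannot be told apart from the labels. Strain, the construction of the allele and litter are not given in the sources used here, and p-values therefore measure the spread between these samples, which may be technical in part.

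Notch signalling passes between touching cells. A Delta-like (Dll) or Jagged (Jag) ligand on 1 cell binds a Notch receptor on its neighbour, an ADAM protease and then the gamma-secretase complex cut the receptor, and the freed intracellular part joins the DNA-binding protein RBPJ and a Mastermind coactivator to switch on repressors of the Hes and Hey families. In lung the pathway is known for the choice between secretory and ciliated cells in the airway, for holding back neuroendocrine cells, and for vessels, where Dll4, Notch4 and Hey1 are typical of endothelium and Notch3 of smooth muscle and pericytes.

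All 6 arrays had been scaled to 1 common trimmed mean, with median signals between 106.2 and 121.5. The signal of Carm1 itself ranged from 679 to 865 in wild type and from 374 to 511 in knockout. Markers of lung epithelium were measured in 8 of 8 cases, with summed signals of 101700 to 131100 in wild type and 106300 to 121700 in knockout. Bacterial control RNA, which can be added before labelling, was present on wild type replicates 1 and 3 (median signals of 459 and 315) and near background on the other 4 arrays (4.82 to 16.1). No knockout array carried it, so its presence is partly confounded with genotype. A difference without spike-in RNA, as used here, sets the 3 knockouts against wild type replicate 2 alone. By Xist and Y-linked signal, 1 array of each genotype (wild type replicate 3, knockout replicate 2) was male, and 4 were female. Heart muscle genes were brightest on knockout replicate 2, with a summed signal of 45340 against 4773 to 18150 on the other 5 arrays.

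Hey1 was the member with the clearest difference: its signal on all 3 knockout arrays lay well under that of all 3 wild-type arrays, with a mean at 61.5% of the wild-type level. The endothelial ligand Dll4 and the endothelial receptor Notch4 were also lower with no overlap between the groups, each at 1 of its probe sets. Such a lack of overlap, in either direction, was seen at 18.8% of the tested Notch probe sets and 20% of all tested probe sets. Jag1, Notch1 and Notch2 lay close to the wild-type level at their brightest probe sets, between 98.5% and 110.9% of it. No member passed the adjusted threshold over all tested probe sets, so none is called changed. Carm1 itself did not pass it either, so a gene that fails it is not thereby shown to be unchanged.

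Of the 19 probe sets 16 passed the filter on low signal and were tested, and these stood for all 10 genes. With limma 0 of the 16 passed an adjusted p of 0.05, against 0.0296% of all 27022 tested probe sets. At an unadjusted p under 0.05 there were 2, Hey1 and 1 probe set of Dll4, both lower in knockout. That is 12.5% of the 16, beside 13.6% of all tested probe sets in either direction (6.31% lower and 7.32% higher). The groups did not overlap at 3 of the 16, or 18.8%, beside 20% of all tested probe sets. All 3 had knockout below, where all tested probe sets give 9.36%, and 0 had knockout above, where they give 10.7%. In both measures the share of Notch probe sets was near the background. The tested probe sets of the 10 genes were lower in 9 cases and higher in 7, with a median log2 difference of −0.075. Over all tested probe sets the median was 0.019 and 47.3% were lower.

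**Figure D1:**
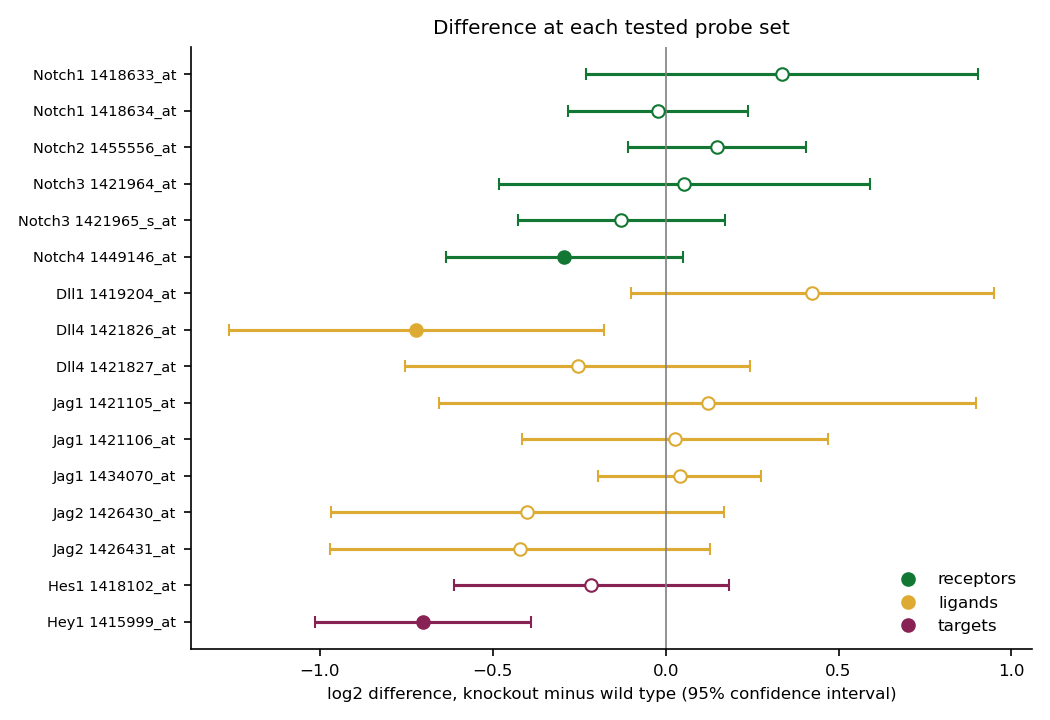
Log2 difference between knockout and wild type (horizontal axis) at the 16 tested probe sets of the 10 Notch genes, with 95% confidence intervals from the fit. Filled points mark probe sets at which the 3 knockout and 3 wild-type arrays did not overlap, which are 1 each of Notch4, Dll4 and Hey1, all to the left of 0, and the intervals of the brighter Dll4 probe set and Hey1 alone lie wholly below 0.

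Among the ligands, Dll4 differed most. Dll4 is the Delta-like ligand of arterial and sprouting endothelium. At its brighter probe set the signal was 362.5, 256.7 and 376.7 on wild type replicates 1 to 3 and 254.4, 195.2 and 157.7 on knockout replicates 1 to 3. The knockout arrays all lay below the wild types, but the gap between the lowest wild type and the highest knockout array was small. The mean went from 332 ± 65.5 (SD, n = 3) to 202 ± 48.8, a log2 difference of −0.72 (SE 0.24, adjusted p = 0.258 by limma). At its dimmer probe set the signal was 283.2, 176.4 and 238.0 in wild type and 196.8, 184.7 and 192.3 in knockout. Here the groups overlapped, because wild type replicate 2 lay below all the knockouts, and the log2 difference was −0.26 (SE 0.22). Wild type replicate 2, the lowest wild type at both probe sets, was also the wild type without spike-in RNA. Without spike-in RNA the difference was −0.37 at the first probe set and 0.12 at the second, so the lower level of Dll4 was seen at 1 of its probe sets and not at the other in that comparison.

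The promoter sequences of the members can be set beside these values, since a target of the RBPJ complex may carry its binding site near the start of transcription. From the RefSeq promoter table of the mouse assembly GRCm38.p6, 8 of the 10 genes could be matched, with 9 promoters among them, and Hes1 and Hey1 had no entry. The RBPJ core motif TGGGAA, searched on both strands from 250 bases before to 50 bases after the start, was found in 0 of the 9, while 25.6% of all 32851 promoters in the table held it. The N-box CACNAG, a site of Hes repressors, was found in 5 of the 9 and in 42.5% of all promoters. The 250 bases before the start are shown for Dll4 and Notch4, the ligand and the receptor with a probe set at which the groups did not overlap, and for Hey2, the relative of Hey1 in the table, with matches to TGGGAA in either direction in capitals.
Dll4, chr2:119325534-119325783, plus strand: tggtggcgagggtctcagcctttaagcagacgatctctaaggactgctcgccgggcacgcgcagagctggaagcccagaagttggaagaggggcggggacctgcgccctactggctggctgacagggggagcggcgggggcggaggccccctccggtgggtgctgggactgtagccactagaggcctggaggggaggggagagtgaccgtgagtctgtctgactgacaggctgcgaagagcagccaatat
Notch4, chr17:34564045-34564294, plus strand: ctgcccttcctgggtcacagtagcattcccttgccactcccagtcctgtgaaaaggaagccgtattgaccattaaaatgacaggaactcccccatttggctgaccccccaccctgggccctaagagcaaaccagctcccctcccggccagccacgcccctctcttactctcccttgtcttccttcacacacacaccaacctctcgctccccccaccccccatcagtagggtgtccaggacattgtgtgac
Hey2, chr10:30842784-30843033, minus strand: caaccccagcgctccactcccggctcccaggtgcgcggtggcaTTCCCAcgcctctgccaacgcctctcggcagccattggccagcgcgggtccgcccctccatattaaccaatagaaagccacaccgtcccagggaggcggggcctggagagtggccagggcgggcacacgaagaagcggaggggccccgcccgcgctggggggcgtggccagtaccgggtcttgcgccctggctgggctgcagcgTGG
The sequences of Dll4 and Notch4 have no capitals. Hey2 has a match that begins 207 bases before the start on the reverse strand and another that begins 3 bases before it and runs past the end of the stretch shown. Both extend to the longer form GTGGGAA, which overlaps the core and was found in 6.4% of all promoters. Such matches were not particular to Hey2. Of 66 promoters of further pathway genes, 19 held the core and 7 the longer form. A match is a description of letters and not of binding, and no match says only that these letters are not in this window. Hey2, a Hey repressor of heart and artery that was named here after its values were seen, had a signal of 98.4 ± 14.7 in wild type and 82.2 ± 17.5 in knockout, with overlapping groups.

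Jag2, a Jagged ligand of airway epithelium and vessels, was lower on average at both of its probe sets, but the groups overlapped at each. At the dimmer probe set the wild-type signals were 345.9, 226.6 and 183.3 and the knockout signals 186.2, 182.1 and 184.6. The 3 knockout arrays were nearly equal, and wild type replicate 3 lay among them. The log2 difference of −0.40 (SE 0.25) was −0.15 without wild type replicate 1 and −0.30 without spike-in RNA. At the brighter the signals were 459.7, 307.5 and 547.5 in wild type and 269.2, 398.9 and 300.6 in knockout, with a log2 difference of −0.42 (SE 0.24). Here knockout replicate 2 lay inside the wild-type range, and without spike-in RNA the difference was 0.05. The adjusted p by limma was 0.527 at the dimmer and 0.490 at the brighter probe set.

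Dll1, the other Delta-like ligand among the members, was the only ligand higher by more than its standard error. Its 1 probe set gave 137.3, 212.5 and 197.4 in wild type and 271.4, 247.4 and 207.0 in knockout. Knockout replicate 3 lay inside the wild-type range, and wild type replicate 1 was the lowest array. The log2 difference was 0.42 (SE 0.23, adjusted p = 0.466 by limma), 0.23 without wild type replicate 1 and 0.18 without spike-in RNA.

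Jag1, the Jagged ligand most often tied to smooth muscle around vessels, differed little at each of its 3 probe sets. The brightest gave 1300, 1401 and 1376 in wild type and 1409, 1504 and 1287 in knockout. Its log2 difference of 0.041 had a 95% confidence interval from −0.20 to 0.28, which is 87.3% to 121.2% of the wild-type level. The dimmest and the middle probe set of Jag1 differed by 0.12 and 0.028 on the log2 scale, with overlapping groups. At the dimmest, knockout replicate 1 (177.3) was the highest of all 6 arrays and knockout replicate 3 (77.3) the lowest.

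**Figure D2:**
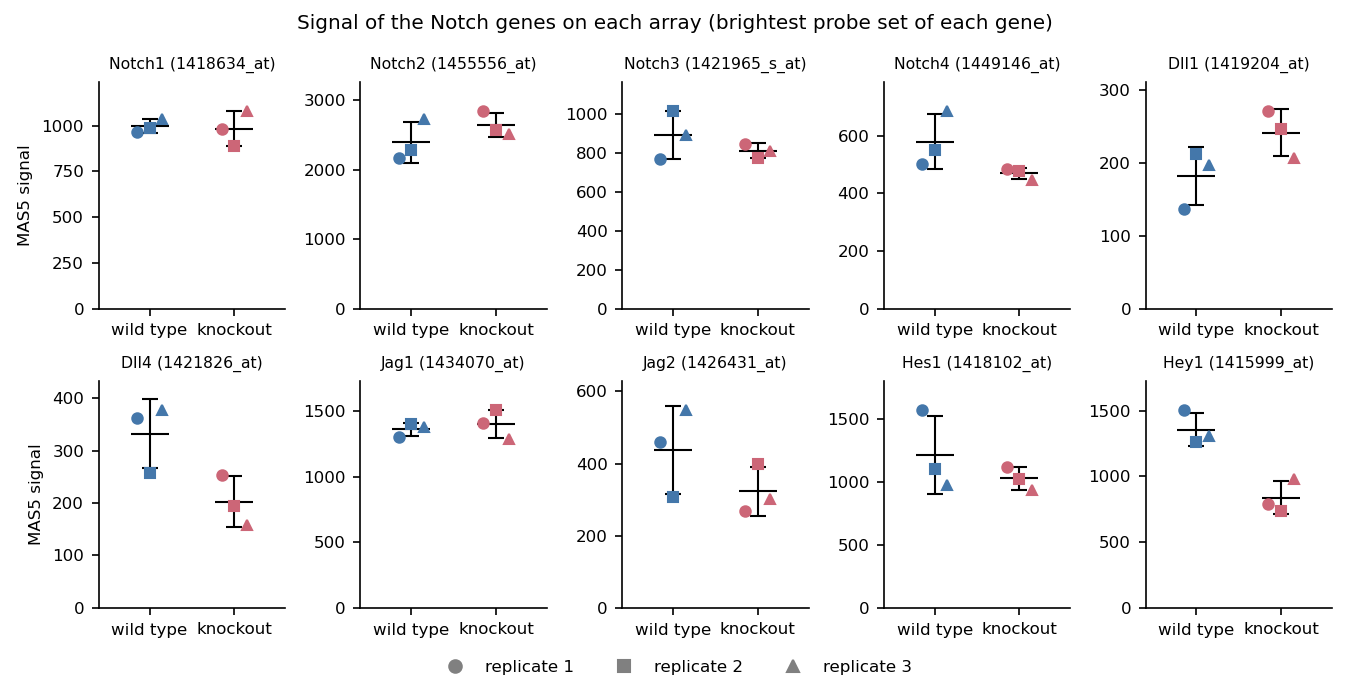
Signal on each array (vertical axis, linear and starting at 0) for the brightest probe set of each of the 10 genes in wild type (blue) and knockout (red), with the mean and SD of 3 arrays as bars and the replicate number as the symbol. Hey1, Dll4 and Notch4 show no overlap between the groups, Hes1 has 1 high wild-type array at 1571, and the brightest probe sets of Jag1 and Notch1 sit at nearly equal levels.

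Of the receptors, Notch4 alone had groups that did not overlap. Notch4 is the Notch receptor typical of endothelium. Its brightest probe set gave 502.4, 551.7 and 685.8 in wild type and 485.5, 476.4 and 446.5 in knockout. The knockout arrays lay close together just below the lowest wild type. The mean went from 580 ± 94.9 to 469.5 ± 20.4, a log2 difference of −0.29 (SE 0.15, adjusted p = 0.439 by limma). It was −0.17 without wild type replicate 3, the brightest array, and −0.23 without spike-in RNA. The other probe sets of Notch4 were under the filter, with mean signals of 21.3 and 52.0 in wild type and 33.7 and 46.1 in knockout, and they gave no usable second reading.

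Notch1, a receptor used in most tissues including airway epithelium and endothelium, gave readings that differed between its probe sets. The brighter had signals of 967, 986 and 1039 in wild type and 984, 890.5 and 1080 in knockout. Its log2 difference was −0.022, with a 95% confidence interval from −0.28 to 0.24. The dimmer had 187.6, 159.1 and 231.0 in wild type and 213.8, 325.4 and 199.8 in knockout, a log2 difference of 0.34 (SE 0.25) that was 0.12 without knockout replicate 2. The groups overlapped at both.

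Notch2, the receptor that acts beside Notch1 in airway epithelium and in mesenchyme, had a signal of 2170, 2287 and 2725 in wild type and 2845, 2576 and 2516 in knockout at its brighter probe set. Wild type replicate 3 lay among the knockouts, and the log2 difference was 0.15 (SE 0.11, adjusted p = 0.607 by limma). Its other probe set was under the filter, at 53.6 ± 27.0 and 55.6 ± 13.6. Notch3, the receptor of smooth muscle cells and pericytes, had means of 893 ± 124 and 813 ± 37.6 at its brighter probe set, whose identifier carries the suffix for probes that may match more than 1 transcript. Its log2 difference there was −0.13 (SE 0.13). At its dimmer probe set Notch3 gave 182.4, 296.9 and 177.3 in wild type and 224.2, 211.7 and 226.4 in knockout, a log2 difference of 0.054 (SE 0.24). Wild type replicate 2 was the highest array at both probe sets of Notch3. Without spike-in RNA, where that array is the only wild type, the difference was −0.32 at the brighter and −0.43 at the dimmer.

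Of the target genes, Hey1 encodes a basic helix-loop-helix repressor switched on by Notch in endothelium and other cells. Its 1 probe set gave 1501, 1257 and 1308 in wild type and 793, 738 and 980 in knockout. The lowest wild-type array lay above the highest knockout array, with knockout replicate 3 the nearest to the wild types. The mean went from 1355 ± 129 to 837 ± 127, a log2 difference of −0.70 (SE 0.14, 95% confidence interval −1.01 to −0.39). In knockout Hey1 was at 61.5% of the wild-type level, with an interval from 49.5% to 76.35%. Its adjusted p was 0.121 by limma, above the threshold, at an unadjusted p of 6.83e-04. An exact permutation test (two-sided) of 3 against 3 arrays gave p = 0.1, which is the lowest value such a design allows. Hey1 was lower in knockout under all 17 alternative settings run for it, from −0.82 without knockout replicate 3 to −0.60 without spike-in RNA. All 3 knockouts lay below wild type replicate 2, and the difference was −0.83 between the male arrays (1 each) and −0.64 between the female arrays (2 each). Because the groups did not overlap, leaving out or splitting arrays could change the size of the Hey1 difference but not its sign. No setting brought Hey1 past the adjusted threshold, with an adjusted p between 0.0808 and 0.597.

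Hes1 encodes the Hes repressor through which Notch holds back neuroendocrine and other differentiation, and other pathways can switch it on as well. Its signal was 1571, 1102 and 978 in wild type and 1120, 1029 and 940 in knockout. Apart from wild type replicate 1, the highest array, the groups overlapped throughout. The means were 1217 ± 313 and 1030 ± 90.0, a log2 difference of −0.22 (SE 0.17, adjusted p = 0.635 by limma), which was −0.016 without wild type replicate 1. Whether Hey1 and Hes1 differ from each other in their response was not tested.

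**Figure D3:**
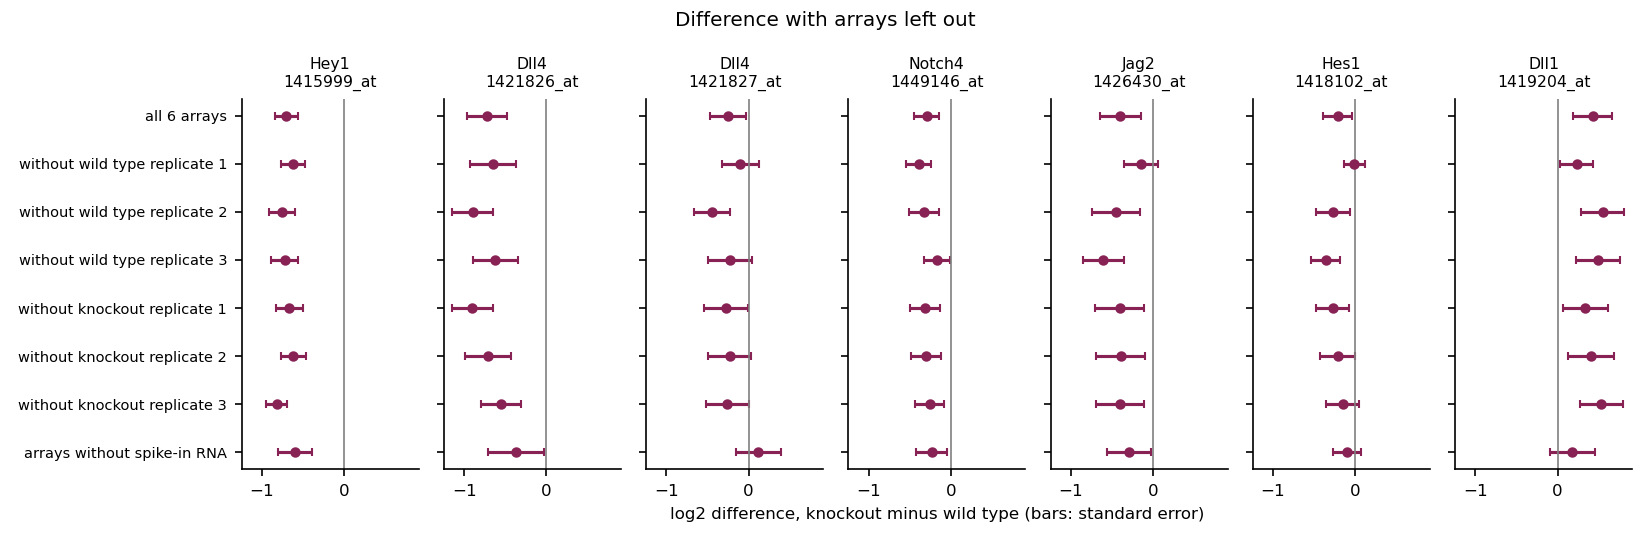
Log2 difference between knockout and wild type (horizontal axis, bars show the standard error) for 7 probe sets with all 6 arrays, with each array left out in turn, and on the 4 arrays without spike-in RNA. Hey1 stays between −0.82 and −0.60 throughout, whereas Hes1 goes to −0.016 without wild type replicate 1 and the dimmer Dll4 probe set goes to 0.12 without spike-in RNA.

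Probe sets of 1 gene could be compared for 7 of the 10 genes, and Dll1, Hes1 and Hey1 had only 1. All probe sets of a gene had the same sign in 4 of the 7, namely Notch2, Dll4, Jag1 and Jag2. In Notch1, Notch3 and Notch4 they differed in sign. For Notch2 and Notch4 the comparison relied on probe sets under the filter. Small differences, as at the brighter Notch1 and the Jag1 probe sets, turned sign under some alternatives, so these signs are weak evidence of agreement or disagreement. Among tested probe sets alone the sign was shared in 3 of 5 genes with more than 1. No gene had groups that did not overlap at more than 1 probe set, so the lower signals of Dll4 and Notch4 each rest on 1 of several probe sets and that of Hey1 on its only one. Where on the transcripts these probe sets lie was not examined here.

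Endothelial markers had lower values in the knockouts. Hey1, Dll4 and Notch4 did too, but they were singled out from the members by their low values on these same arrays. Notch1, also used in endothelium, differed by −0.022 at its brighter probe set and by 0.34 at its dimmer one. Of 12 endothelial markers 9 were lower and 3 higher in knockout, with a median log2 difference of −0.36 and differences from −2.08 to 0.24. By limma 0 of the 12 passed the adjusted p. In 8 of the 12 the knockouts lay below all wild types, where all genes give 10.5% with 1 probe set per gene, and no member of the list was at 0. The marker lists were chosen with earlier results of these data known, so such shares describe the lists and test nothing. The summed signal of the list was 31310 to 34660 in wild type and 24850 to 28130 in knockout. Pecam1, an adhesion molecule of endothelium, was at 2970, 2494 and 3768 in wild type and 2274, 2328 and 1942 in knockout. Cdh5, the cadherin of endothelial junctions, was at 1595, 1957 and 1773 in wild type and 1475, 1312 and 1366 in knockout. Of 8 arterial endothelial markers 6 had lower means in knockout (median −0.30), with summed signals of 13150 to 14380 and 10170 to 11740. Among them Gja5, an arterial connexin, was at 14.8, 55.6 and 123.0 in wild type and 121.0, 121.3 and 71.2 in knockout. Its log2 difference of 1.12 was the highest of that list and had the opposite sign to its median, and the groups overlapped. Gja4, another connexin, differed by −0.27 on the log2 scale, with overlapping groups. Without spike-in RNA, with wild type replicate 2 as the only wild type, the endothelial median was −0.21 and the arterial median −0.10. Alveolar type I markers were lower in 8 of 8 (median −0.57) and proliferation genes higher in 7 of 7 (median 0.80). In whole-lung RNA fewer cells of a type and less RNA per cell cannot be told apart, and the part of these marker differences, and of age, in the values of Hey1, Dll4 and Notch4 was not tested.

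Among other cells in which Notch acts, the markers of smooth muscle, pericytes and ciliated cells did not share that direction. Smooth muscle and pericyte markers were higher in 7 of the 8 tested, with a median of 0.25 and summed signals of 14530 to 15580 in wild type and 15710 to 18390 in knockout, while Notch3, Jag1 and Heyl gave the values named for them. Acta2, smooth muscle actin, differed by 0.19 and Myh11, smooth muscle myosin, by 0.32 on the log2 scale, neither past the adjusted threshold. Ciliated cell markers were higher in 8 of 8, with a median of 0.49 and summed signals of 8590 to 10020 and 13650 to 13890. Of these Foxj1, the regulator of motile cilia, differed by 0.12 and Tekt1, of the ciliary axoneme, by 0.67. Club cell markers, of the secretory cell, were higher in 6 of 8 with a median of 0.10. Scgb1a1, the main club cell secretoglobin, differed by −0.19, while Scgb3a1 ranged from 233 to 11130 in wild type and from 5537 to 38860 in knockout. Of 6 measured neuroendocrine markers 4 were under the filter, Chga and Chgb among them, so this cell type was close to the limit of detection. The part of these cell types in the values of the Notch genes was not tested.

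The wider pathway showed no common direction. Of 64 further pathway genes 59 were on the array and 51 were tested, with 1 probe set per gene, the one of highest mean. By limma 0 passed the adjusted p, against 0.0541% of all 12947 genes. Of the 51, 25 were higher and 26 lower, with a median log2 difference of −0.016, beside 0.029 over all genes. At an unadjusted p under 0.05 there were 2 higher and 2 lower, where all genes give 9.14% and 7.36%. The groups did not overlap with knockout below in 3 and above in 2, where all genes give 10.5% and 12.6%.

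Genes that modify ligands and receptors, 10 of 10 tested, had a median of −0.016, and of 0.15 when wild type replicate 2 was dropped. Neurl3, a ubiquitin ligase of the Neuralized family, was at 133 ± 35.6 and 76.7 ± 47.2, with knockout replicate 1 the lowest array at 22.9. Mfng, the Manic fringe glycosyltransferase that tunes receptors towards Delta ligands, was at 559 ± 110 and 467 ± 27.8. Genes of receptor cleavage, 8 tested, had a median of −0.070 (−0.16 without spike-in RNA), led by the protease Adam10, which makes the first cut (5909 ± 531 and 5012 ± 667), and by Psenen, a gamma-secretase subunit (5908 ± 850 and 5038 ± 170). In both of these the groups overlapped. The other tested probe sets of Adam10 differed by −0.084 and −0.058 on the log2 scale, beside −0.24 at the one used. Of the non-canonical and further ligands, 7 tested, 4 were lower and 3 higher with a median of −0.18, which was 0.087 with the filter at the 60th percentile. Mfap2, a microfibril protein placed in that list, was at 2642 ± 328 and 3399 ± 559, and Cntn1, a contactin, at 192 ± 19.6 and 123 ± 59.5 with no overlap. At their other tested probe sets Mfap2 differed by −0.33 and Cntn1 by −0.52 on the log2 scale, both with overlapping groups.

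In the nuclear complex, 10 genes were tested with a median of 0.029. Dropping wild type replicate 1 gave −0.021, and the comparison without spike-in RNA −0.041. Ep300, the histone acetyltransferase recruited by Mastermind and a known substrate of CARM1, gave 1400, 1588 and 1424 in wild type and 1141, 1308 and 1224 in knockout. Its groups did not overlap, and the log2 difference was −0.27 (SE 0.11, adjusted p = 0.332 by limma). Maml1, a Mastermind coactivator, was at 1765 ± 205 and 1570 ± 50.4. It differed by −0.16 on the log2 scale there and by 0.005 at its other tested probe set. Rbpj, named here after its values were seen, was higher at each of its 3 probe sets, by 0.14, 0.20 and 0.16 on the log2 scale, with no overlap at 1 of them. The genes of turnover and inhibition, 10 tested, had a median of 0.020 (−0.036 without spike-in RNA). At the probe sets used, Numb and Dtx1 had groups that did not overlap, where all genes give 10.5% below and 12.6% above. Fbxw7 of this list, named here after its values were seen, differed by 0.47 with no overlap at its dimmer probe set. At its brighter probe set Fbxw7 differed by 0.087, with overlapping groups. Numb, an inhibitor of Notch receptors, was at 2341 ± 92.2 and 2026 ± 76.2, lower at both of its probe sets by 0.21. Dtx1, a Deltex ubiquitin ligase, was at 66.9 ± 4.07 and 106 ± 15.95, near the filter. The other Hes and Hey genes and targets had 6 of 12 tested, 4 higher and 2 lower, with a median of 0.20. Dropping knockout replicate 3 gave 0.11, and the comparison without spike-in RNA 0.018. Hes6, which opposes Hes1, was at 801.5 ± 39.6 and 966 ± 136 with no overlap. At its other probe set Hes6 was also higher, by 0.21 on the log2 scale, with overlapping groups. Heyl, the Hey gene of smooth muscle and pericytes, was at 237 ± 27.9 and 297 ± 56.9. Nrarp, a feedback inhibitor named here after its values were seen, was at 1034 ± 54.2 and 1144 ± 113, but its other probe set differed by −0.14 on the log2 scale. At the probe sets used, Hes6, Heyl, Nrarp and Myc had means above wild type, and Hey2 and Cd44 had means below it. Myc and Cd44 are also named here after their values were seen. The members Hes1 and Hey1 had means below wild type. Of these genes only Hes6 and Hey1 had groups that did not overlap, and whether the targets differ from each other was not tested.

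**Figure D4:**
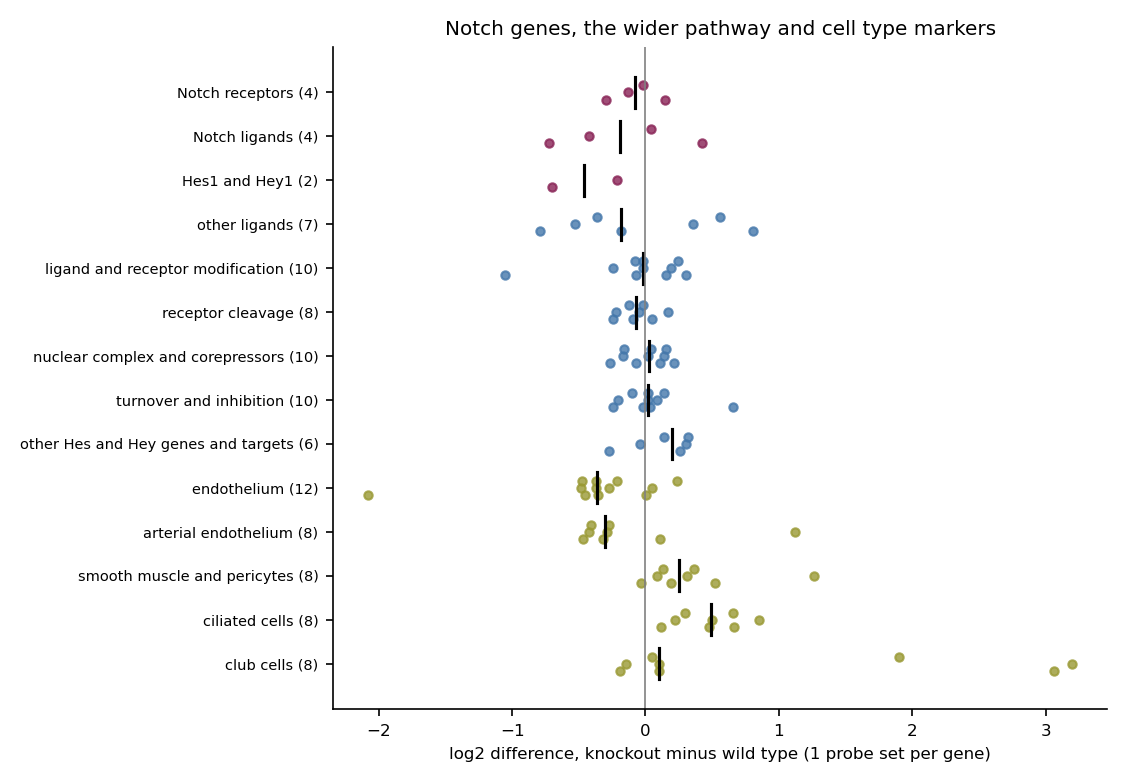
Log2 difference between knockout and wild type (horizontal axis) for each gene, 1 probe set per gene, in the Notch members (purple), the lists of further pathway genes (blue) and marker lists of cell types (olive), with the number of genes in brackets and the median as a black line. Pathway medians lie between −0.18 and 0.20, endothelial and arterial medians at −0.36 and −0.30, and the ciliated cell median at 0.49.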

How the data were processed

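Lung RNA was converted to cRNA and run on Affymetrix Mouse Genome 430 2.0 arrays, per the labels' protocols. MAS5, named in the submitters' processing notes without a version, gave the authors' deposited intensity values, which are linear. Their mean after trimming 2% at each end was 500.0 on every array. Symbols came from the platform annotation, updated through a RefSeq gene table. No value was at or below 0, so log2 was taken without a pseudocount. Of 45101 probe sets, 64 controls were left out, and 27022 with a mean log2 value over the 40th percentile, equal to a signal of 59.7, were tested with limma 3.58.1 in R 4.3.3 (eBayes with an intensity trend, two-sided, Benjamini-Hochberg adjustment over all tested probe sets, threshold 0.05). Percentages of the wild-type level are ratios of geometric means. The fit was tested on simulated data. The number of arrays limits the precision. Members, gene lists, tests and alternatives were chosen with earlier results of these data known. All members were named, with the 2 genes of smallest p of each pathway list and the first 2 measured genes of the marker lists described. Others are said to be chosen after their values were seen.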

Additional observations from a re-analysis of the deposited data

How the results depend on the processing

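With 3 arrays per genotype, differences of the size seen for most Notch genes were within the spread of the arrays. The number of member probe sets past the adjusted threshold was 0 under all 17 alternatives run. Over all probe sets 8 passed, and the count was 0 without an intensity trend, 40 with robust variance, 0 with the replicate block, 4 with sex as a term, 2 with spike-in RNA as a term and 3 on the arrays without spike-in RNA. At an unadjusted p under 0.05 limma gave 3287 without the trend and 3054 with the block. With single arrays left out the adjusted count ran from 0 to 13. It was 13 when knockout replicate 1 was dropped, 2 when wild type replicate 2 was, and 0 in the 4 other cases, with 2425 to 3473 at an unadjusted p under 0.05. The labels tie same-numbered arrays by nothing but the number. Correlations of their deviations were −0.136, −0.38 and −0.006, and with litter not given these cannot show whether such arrays were paired. The replicate block brought no member past the adjusted threshold, and none had passed it without the block. The direction held under all alternatives run for Hey1, Hes1, Dll1, Notch2 and Notch4, as far as they were tested. It also held for the brighter Dll4 and Notch3 probe sets and the dimmer Notch1 and Jag2 probe sets. For Hey1, Notch4 and the brighter Dll4 probe set, whose groups did not overlap, leaving out arrays could not turn the sign. With spike-in RNA as a term, and equally on the arrays without it, the sign turned for the dimmer Dll4 (0.116), the dimmer Notch3 (−0.428), the brighter Jag2 (0.050) and the brightest Jag1 probe set (−0.004). With quantile normalization it turned for the middle Jag1 (−0.025) and the dimmer Notch3 (−0.004), and with median centring for the middle Jag1 (−0.012). With single arrays left out, the brighter Notch1 ran from −0.091 to 0.048, the dimmer Notch3 from −0.077 to 0.295, and Jag1 from −0.196 to 0.402 at the dimmest, −0.049 to 0.111 at the middle and −0.013 to 0.10 at the brightest probe set. The 60th percentile filter removed the dimmest and the middle Jag1 probe set. The median of the 51 pathway genes was −0.016. It ran from −0.021 to 0.035 with single arrays left out, was 0.050 with the probe set of smallest p per gene, and −0.073 with spike-in RNA as a term or on the arrays without it. For this median the spike-in settings were chosen after seeing the data. The stricter filter gave 0.019. Medians of the separate lists, also recomputed under settings chosen after seeing the data, ran from −0.28 to 0.087 for other ligands, −0.076 to 0.151 for modification, −0.163 to −0.056 for cleavage, −0.041 to 0.052 for the nuclear complex, −0.036 to 0.052 for turnover and 0.018 to 0.261 for the other Hes and Hey genes and targets. The cause was not tested for any of these.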
